A study of Mus musculus with 32 samples.

Results

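The 10 genes described here encode the acid-base machinery of the intercalated cell, the cell type of the renal collecting duct that moves protons, bicarbonate and ammonia. They are the transcription factor gene Foxi1, the proton pump subunit genes Atp6v1b1, Atp6v1g3, Atp6v0d2 and Atp6v0a4, the anion exchanger genes Slc4a1, Slc26a4 and Slc4a9, and the ammonia channel genes Rhbg and Rhcg. They were chosen by name, as the rows of the count table that carry these 10 gene names among its 54532 genes, and all 10 were found and passed the filter on low counts in each comparison. The values come from RNA sequencing of whole kidney tissue of wild type C57BL/6 mice aged 6 to 8 weeks, in 8 groups of 4 mice. Male and female mice were sampled at Day 0 and at Day 2, Day 3 or Day 5 after a single intraperitoneal dose of 20 mg/kg cisplatin, a platinum drug that injures the renal tubule (cisplatin-AKI). Each library was 1 mouse. The sample labels list cisplatin for the female Day 0 mice and no treatment for the male Day 0 mice, whereas the text of the study calls Day 0 mice healthy, and Day 0 was used as the untreated group of each sex. No untreated mice were sampled at the later days, so day and treatment cannot be told apart.

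Intercalated cells secrete acid or base to hold the pH of the blood. Type A cells carry the vacuolar proton pump (V-ATPase) in their luminal membrane and return bicarbonate to the blood through the exchanger encoded by Slc4a1, whereas type B cells secrete bicarbonate through pendrin, encoded by Slc26a4. The pump has a cytosolic V1 sector, which splits ATP, and a membrane V0 sector, which passes protons, and several of its subunits exist as a widely expressed form and a form that is abundant in intercalated cells. Foxi1 is the transcription factor known to be needed for intercalated cells to form and to express these genes.

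The libraries held between 16502107 and 35961325 counts, and no member had fewer than 48 counts in any library. Levels are given as CPM, the counts of a gene scaled to a common library size with TMM factors, and changes as log2 fold changes with their standard error (SE). The share of counts from mitochondrial transcripts was 78.9 to 79.8% in male Day 5 mice 2 to 4, 77.9% in female Day 5 mouse 2, 42.5% in the library labelled male Day 5 mouse 1, and 4.49 to 31.6% in the other libraries. Of Xist, the transcript of the silenced X chromosome of female cells, the library labelled male Day 5 mouse 1 had 4153 counts, against 59 to 260 in the other male Day 5 mice. Of Y-linked genes it had 387 counts, against 447 to 545. It thus holds transcripts of both sexes, and its Xist count goes against its label. The counts of calls, paralogue ratios and gene lists at male Day 5, and the member values that rest on it, are also given without it. Xist had 0 to 3 counts in male Day 2 mice and 3 to 5 in male Day 3 mice, so the other male Day 5 mice also stood above these. It ran to 242 counts in male Day 0 mice. Y-linked genes ran to 221 counts in female Day 0 mice and had 0 counts in female Day 2, Day 3 and Day 5 mice. Erythroid genes, summed, lay between 437 and 2154 CPM in male Day 0 mice and between 4.71 and 6.96 CPM in male Day 3 mice. A gene counts as called when the adjusted p of the edgeR quasi-likelihood test was under 0.05 over all genes tested, and as a DEG when its absolute log2 fold change was over 1.5 as well.

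In healthy male kidneys the levels per kb of gene length were highest for Rhcg, at 39.3 ± 4.40 CPM per kb (SD, n = 4). Atp6v0a4 followed at 30.2 ± 7.81 CPM per kb and Atp6v1g3 at 22.8 ± 9.50 CPM per kb. Slc26a4 stood at 16.4 ± 0.511 CPM per kb. Below it came Slc4a9, Atp6v1b1, Rhbg, Foxi1 and Atp6v0d2 in that order, and Slc4a1 was lowest at 6.45 ± 2.34 CPM per kb. Neighbours in this order overlapped between mice, apart from Atp6v1g3 against Slc26a4 and Foxi1 against Atp6v0d2. In female Day 0 mice Rhcg was again highest, at 67.3 ± 17.1 CPM per kb, and Atp6v0d2 was lowest, at 7.40 ± 1.80 CPM per kb. The order differed at Day 3, when Atp6v0a4 led in males with 50.6 ± 11.2 CPM per kb, without overlap with Rhcg at 23.8 ± 3.85 CPM per kb, and Rhbg was lowest with 2.72 ± 0.323 CPM per kb.

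**Figure D1:**
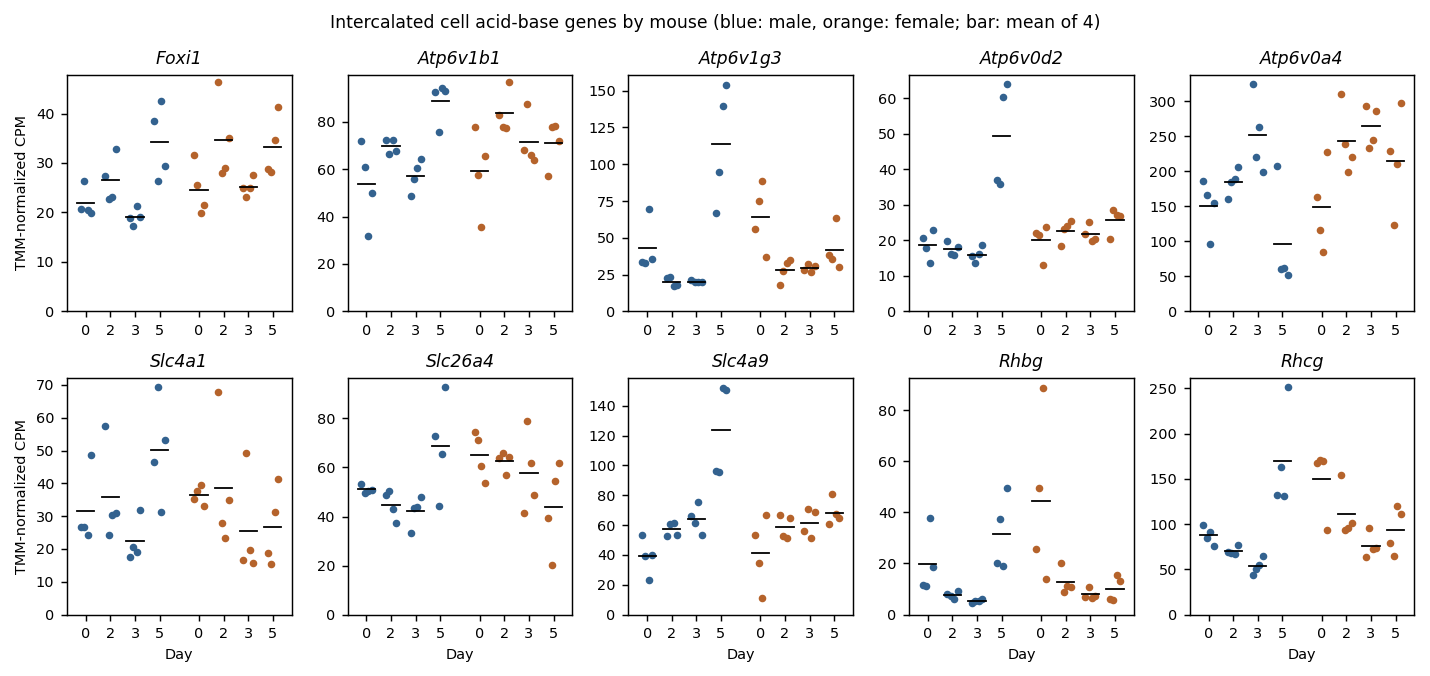
TMM-normalized CPM of each of the 10 genes in each of the 32 mice, by day and sex, with 1 point per mouse in blue for males and orange for females and a bar at each group mean. Rhbg spread from 11.3 to 37.9 CPM in male Day 0 mice and lay between 4.46 and 5.98 CPM in male Day 3 mice, and the library labelled male Day 5 mouse 1 stood at 207 CPM for Atp6v0a4 against 51.9 to 62.0 CPM in the other male Day 5 mice.

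The comparison of each day with Day 0 asked how these genes moved as the injury developed. At Day 2 none of the 10 genes was called by edgeR in either sex. In males 4 of 10 had an unadjusted p under 0.05, against 29% of all genes tested, while the Wald test of DESeq2 called 2, where it called 20% of all genes, and limma voom with sample quality weights 4, where it called 46.4%. In females 3 of 10 had an unadjusted p under 0.05, against 25.3% of all genes, and DESeq2 called 2 (13% of all genes) and voom 4 (50.3% of all genes). These counts by DESeq2 and voom lie near or below their own shares of all genes. Of all genes tested, edgeR called 3.16% in males and 1.93% in females. The 4 Day 2 mice lay entirely apart from the 4 Day 0 mice for 2 members in males (Atp6v1g3 and Rhbg), against 24.4% of all genes, and for 1 member in females (Atp6v1g3), against 15.3% of all genes. Both sets of comparisons share their Day 0 mice with those of Day 3 and Day 5, so the days are not independent of each other. In whole tissue, fewer cells of a type and less RNA per cell cannot be told apart, here and in the values that follow.

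At Day 3 the ammonia channel genes Rhbg and Rhcg and the pump subunit gene Atp6v1g3 were called lower in both sexes, and Atp6v0a4 higher in males. For Atp6v0a4 the female log2 fold change, 0.82, was not called, and the male minus the female one was -0.11 (edgeR interaction adjusted p = 0.989). With the gene length trend of each library taken out, as given below, Rhcg and Atp6v0a4 were not called in males and no gene was called in females. In males 4 of 10 members were called, 1 higher and 3 lower. Of all genes 24.5% were called in that comparison, 11.4% higher and 13.1% lower, so that the count for the members lies within a few genes of that share of 10. Rhbg was the 1 DEG among them, where 1.84% of all genes were DEGs that fell. The median log2 fold change of the members was -0.26, against 0.02 for all genes. In females 3 of 10 were called, all lower, against 5.54% of all genes called and 4.28% called lower. Rhbg was again the 1 DEG, where 1.97% of all genes were DEGs that fell, and the median of the members was -0.09 against 0.03 for all genes. The Day 3 and Day 0 mice did not overlap for 6 members in males, against 38.3% of all genes, and for 3 members in females, against 19.3% of all genes.

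The Day 3 counts, and the share of all genes called beside them, moved when single mice were left out. In males the count of members called lay between 0 and 5 when each mouse was left out in turn. It was 0 without male Day 3 mouse 2 or mouse 3, when 6.38% and 4.18% of all genes were called, 1 when male Day 3 mouse 1 was left out (6.56% of all genes), 2 when male Day 3 mouse 4 was (7.98%), and 5 when male Day 0 mouse 3 was, where 38.6% of all genes were called. In females it was 4 without female Day 0 mouse 4, when 39.1% of all genes were called, and 1 without female Day 3 mouse 2, when 3.15% were. Leaving out any other female mouse of that comparison gave 0 members called, and at most 0.00577% of all genes. The directions of Rhbg, Rhcg and Atp6v1g3 were the same in each of these fits.

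At Day 5 the sexes were read separately, since the library that goes against its label belongs to the males. In males 6 of 10 members were called, all higher (Slc4a9, Atp6v0d2, Atp6v1g3, Rhcg, Foxi1 and Atp6v1b1), against 19.2% of all genes called and 8.98% called higher. Slc4a9 was the 1 DEG, where 3.83% of all genes were DEGs that rose. The median log2 fold change of the 10 members was 0.77, against 0.04 for all genes, and 4 members did not overlap between Day 5 and Day 0, against 27.3% of all genes. Without the library labelled male Day 5 mouse 1, 5 of 10 were called, 4 higher and 1 lower, against 26.0% of all genes. The count was 2, namely Slc4a9 and Atp6v0d2, when male Day 0 mouse 1 or 2 or male Day 5 mouse 2, 3 or 4 was left out, and the share of all genes called then fell to between 5.38% and 6.79%. It was 6 when male Day 0 mouse 3 was left out, with Rhbg called in place of Foxi1, against 19.9% of all genes. In females edgeR called none of the 10, against 0.258% of all genes. There 2 had an unadjusted p under 0.05, against 15.7% of all genes, DESeq2 called 1 (4.82% of all genes) and voom 2 (17.6%), and no member was free of overlap, against 8.6% of all genes.

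The summed CPM of the 10 genes lay between 459 and 577 in male Day 0 mice, 507 and 594 in male Day 3 mice, and 703 and 991 in male Day 5 mice. In females the sums were 611 to 708 at Day 0, 594 to 707 at Day 3 and 480 to 759 at Day 5. The male Day 5 sums thus lay above those of Day 0 without overlap, whereas each other day overlapped Day 0 of its sex. Genes of the neighbouring principal cell, summed, ran from 760 to 1419 CPM in male Day 0 mice and from 1360 to 2087 CPM in male Day 5 mice, where only the library labelled male Day 5 mouse 1 overlapped Day 0. Acid-base genes of the proximal tubule, listed together with its general markers Slc34a1 and Lrp2, summed, ran from 8155 to 9049 CPM and from 871 to 5612 CPM in these groups. Of the 10 proximal genes, 2 were called lower at male Day 5 with all libraries, against 19.2% of all genes, and 7 without the library labelled male Day 5 mouse 1, against 26% of all genes. Slc34a1 and Lrp2 were among these 7. The part of cell composition in the male Day 5 values was not tested.

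**Figure D2:**
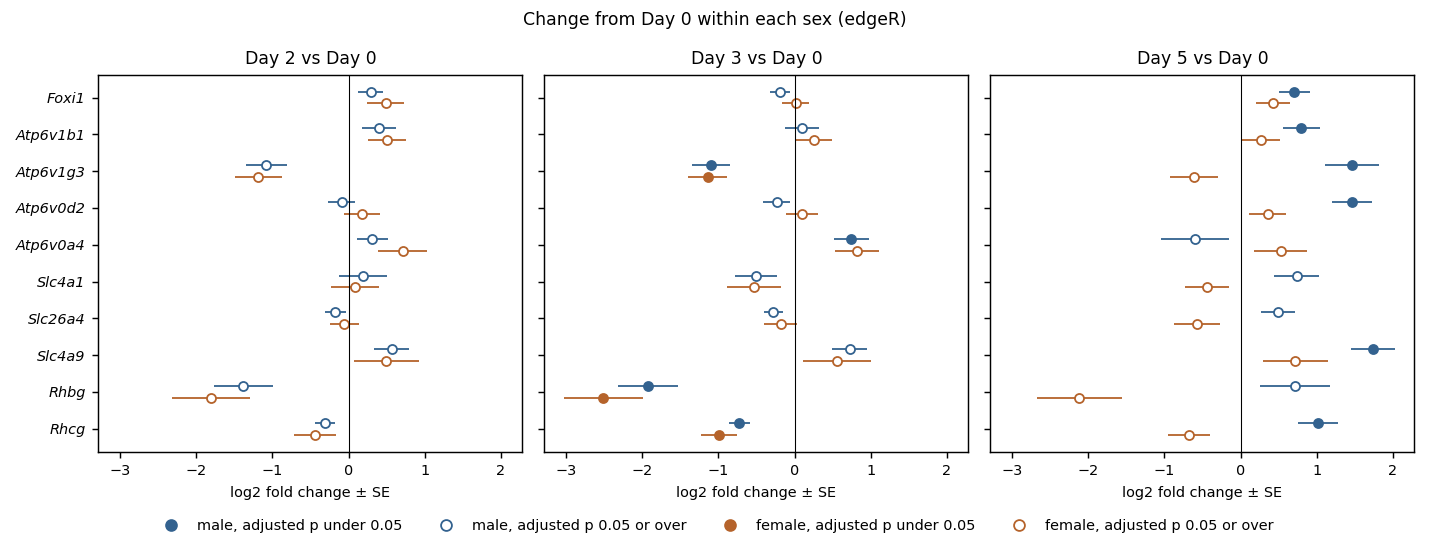
Log2 fold change of each member against Day 0 of its sex, with its SE as the bar, for Day 2, Day 3 and Day 5, and with filled points for genes called at an adjusted p under 0.05. Slc4a9 reached 1.74 and Rhbg 0.71 in males at Day 5, while Rhbg stood at -2.51 in females at Day 3.

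Foxi1 (ENSMUSG00000047861, chromosome 11, 34204338 to 34208089 in GRCm38, minus strand) encodes the forkhead transcription factor above the rest of the set. Its levels in male Day 0 mice were 20.6, 26.3, 20.6 and 19.9 CPM, and in male Day 3 mice 18.9, 17.3, 21.3 and 19.0 CPM. These groups overlapped, and the log2 fold change of -0.19 ± 0.13 (SE, edgeR adjusted p = 0.286) did not pass the test. In male Day 5 mice Foxi1 stood at 38.4, 26.3, 42.5 and 29.5 CPM, with mouse 2 inside the Day 0 range. Its log2 fold change there was 0.71 ± 0.20 (SE, edgeR adjusted p = 0.0389), and 0.66 with an adjusted p of 0.0533 without the library labelled male Day 5 mouse 1, when it was not called. This call held in 6 of 17 other fits and in none of the 8 that left out 1 mouse. In females the group means were 24.6 ± 5.29 CPM at Day 0, 34.6 ± 8.49 CPM at Day 2, 25.1 ± 1.84 CPM at Day 3 and 33.2 ± 6.14 CPM at Day 5 (SD, n = 4), and no day passed the test against Day 0.

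The genes whose 8 group means lay closest to those of Foxi1 were sought among 13190 protein-coding genes, by the root-mean-square distance of their centred log2 CPM. The 5 closest were Zfp689 at 0.0878, Morn4 at 0.0937, Lzts2 at 0.115, Tsc22d4 at 0.115 and Zfp703 at 0.120, where the median gene lay at 0.446. Among the members Atp6v1b1 was nearest, at 0.145, with 17 genes closer than it. Atp6v0d2 and Slc26a4 both lay at 0.319 and Slc4a1 at 0.330. Rhcg at 0.407 and Slc4a9 at 0.440 were near the median gene, and Atp6v0a4 at 0.672, Atp6v1g3 at 0.703 and Rhbg at 0.878 lay farther from Foxi1 than the median gene did. These distances are descriptions over 8 group means that share their libraries.

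The promoter windows of the members were read for the forkhead core motif GTAAACA and its reverse complement TGTTTAC, because Foxi1 is a forkhead factor. RefSeq windows from 250 bases before to 50 bases after the transcript start (GRCm38.p6) matched 6 of the 10 members. The motif was present in 1 of these 6, that of Atp6v1b1, 98 bases before the RefSeq start, and in 3.65% of 32851 windows of all genes. The bases before that start run to 83743016, past 83742990, where the deposited gene begins. The last of them thus lie inside the gene as deposited. The shorter run TAAACA, which the longer motif contains, was in 13.4% of all windows. The bases before the RefSeq start of Atp6v1b1, the member nearest to Foxi1 in its group means, are shown beside those of Atp6v1g3, a member far from it, with the motif in capitals.
Atp6v1b1 (chr6:83742767-83743016, plus strand): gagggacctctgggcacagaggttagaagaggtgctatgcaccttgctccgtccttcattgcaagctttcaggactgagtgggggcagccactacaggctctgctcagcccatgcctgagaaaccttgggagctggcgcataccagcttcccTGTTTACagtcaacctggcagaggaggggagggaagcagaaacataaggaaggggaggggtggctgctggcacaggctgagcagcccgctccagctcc
Atp6v1g3 (chr1:138273488-138273737, plus strand): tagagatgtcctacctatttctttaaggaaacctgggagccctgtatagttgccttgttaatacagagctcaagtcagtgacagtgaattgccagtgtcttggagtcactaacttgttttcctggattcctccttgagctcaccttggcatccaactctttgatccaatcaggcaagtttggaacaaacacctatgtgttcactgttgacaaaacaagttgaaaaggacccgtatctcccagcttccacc
The Atp6v1g3 window holds no match to either strand of the motif. A match describes the letters of a window and shows no binding.

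Atp6v1b1 (ENSMUSG00000006269, chromosome 6, 83742990 to 83758855, plus strand) encodes the B1 subunit of the V1 sector, which takes part in ATP hydrolysis in intercalated cells. It stood at 72.0, 60.8, 31.7 and 49.8 CPM in male Day 0 mice, 48.5, 55.8, 60.7 and 64.3 CPM in male Day 3 mice and 92.7, 75.7, 94.2 and 93.1 CPM in male Day 5 mice. The Day 5 mice all lay above the Day 0 mice, the closest pair being 75.7 against 72.0 CPM, and the Day 3 mice lay within the Day 0 range. For Atp6v1b1 the log2 fold change was 0.10 ± 0.23 (SE, edgeR adjusted p = 0.757) at Day 3 and 0.80 ± 0.25 (SE, edgeR adjusted p = 0.0479) at Day 5. Without the library labelled male Day 5 mouse 1 the Day 5 value was 0.80 with an edgeR adjusted p of 0.0553, and the call held in 7 of 17 other fits. In females Atp6v1b1 ran from 35.4 to 77.8 CPM at Day 0 and from 57.0 to 78.2 CPM at Day 5, and no day was called.

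Atp6v1g3 (ENSMUSG00000026394, chromosome 1, 138273738 to 138289462, plus strand) encodes the G3 subunit of the V1 stalk. In male mice it read 33.3, 33.1, 69.8 and 35.6 CPM at Day 0, 22.4, 23.5, 17.3 and 17.9 CPM at Day 2 and 21.2, 19.8, 20.2 and 19.9 CPM at Day 3. Every Day 2 and Day 3 mouse lay below every Day 0 mouse, and Day 0 mouse 3 stood far above the other Day 0 mice. The log2 fold change was -1.08 ± 0.27 (SE, edgeR adjusted p = 0.059) at Day 2 and -1.09 ± 0.25 (SE, edgeR adjusted p = 0.0209) at Day 3. Without male Day 0 mouse 3 these were -0.75 (adjusted p = 0.016) and -0.75 (adjusted p = 0.000326). At Day 2 it was -1.15 (adjusted p = 0.0405) when male Day 0 mouse 4 was left out. In female mice it read 55.8, 74.8, 88.9 and 36.7 CPM at Day 0 and 28.1, 32.4, 26.5 and 30.6 CPM at Day 3. Again the groups did not overlap, and the log2 fold change of -1.14 ± 0.26 (SE, edgeR adjusted p = 0.0479) passed the test, as it did not at Day 2, where it was -1.18 (edgeR adjusted p = 0.0585), and -1.37 (adjusted p = 0.00498) without female Day 0 mouse 4.

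By Day 5 Atp6v1g3 stood at 66.5, 94.6, 139 and 154 CPM in males, where the library labelled mouse 1 was the lowest and lay within the Day 0 range. Its log2 fold change was 1.46 ± 0.36 (SE, edgeR adjusted p = 0.0233), and 1.66 (adjusted p = 0.00672) without that library. In females it stood at 38.5, 35.5, 63.5 and 29.9 CPM at Day 5, below the Day 0 mean of 64.0 CPM in every mouse. That difference, -0.61 (edgeR adjusted p = 0.371), did not pass the test.

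Atp6v0d2 (ENSMUSG00000028238, chromosome 4, 19876841 to 19922605, minus strand) encodes the d2 subunit of the V0 sector, which is also made in osteoclasts and macrophages. Its values were 20.6, 17.9, 13.7 and 22.9 CPM in male Day 0 mice and 36.9, 35.9, 60.2 and 64.1 CPM in male Day 5 mice, without overlap. The log2 fold change of 1.46 ± 0.26 (SE, edgeR adjusted p = 0.0103) was called in 17 of 17 other fits, with values between 1.22 and 1.59, the upper one without the library labelled male Day 5 mouse 1. It is under the DEG threshold of 1.5. At Day 2 and Day 3 neither sex passed the test, with log2 fold changes of -0.09 and -0.23 in males and 0.17 and 0.097 in females. Macrophage and osteoclast markers, 11 genes in all of which 10 were tested, summed to between 206 and 301 CPM in male Day 0 mice and between 120 and 225 CPM in male Day 5 mice. Of the 10 tested at male Day 5, none was called higher and 1, Csf1r, was called lower, against 19.2% of all genes. When the library labelled male Day 5 mouse 1 was left out, Csf1r was again called lower, and Cd68, a lysosomal protein of macrophages, at 1.81 (adjusted p = 0.00752) and Ctss, a cathepsin, at 0.99 (adjusted p = 0.0426) were called higher, against 26% of all genes called in that fit, a share near that of the list. The part of these cells in the values of Atp6v0d2 was not tested. The osteoclast gene Ocstamp was at 0 to 0.891 CPM over all 32 libraries, and Ctsk at 3.41 to 15.3 CPM in male Day 5 mice against 3.10 to 5.81 CPM at Day 0.

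Atp6v0a4 (ENSMUSG00000038600, chromosome 6, 38048483 to 38124586, minus strand) encodes the a4 subunit of the V0 sector, which is also present in other nephron segments. At Day 3 it moved the opposite way to Atp6v1g3 in males. Its values were 186, 166, 95.6 and 154 CPM in male Day 0 mice and 324, 220.0, 263 and 198 CPM in male Day 3 mice, which lay apart. The log2 fold change of 0.74 ± 0.23 (SE, edgeR adjusted p = 0.0466) passed the test, but was called in only 5 of 17 other fits. In females the values were 164, 117, 85.1 and 227 CPM at Day 0 and 293, 234, 245 and 286 CPM at Day 3, also without overlap. There the log2 fold change was 0.82 ± 0.29 (SE, edgeR adjusted p = 0.101), and 1.10 (adjusted p = 0.00773) without female Day 0 mouse 4, which was the highest of its group. Without that mouse the female Day 2 value, 0.99 (adjusted p = 0.0248), was called too.

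At Day 5 Atp6v0a4 split the male group, with 207, 60.9, 62.0 and 51.9 CPM. The library labelled mouse 1 stood above every Day 0 mouse and the other 3 below every Day 0 mouse. With all 4 libraries the log2 fold change was -0.60 ± 0.44 (SE, edgeR adjusted p = 0.359). Without the library labelled mouse 1 it was -1.29 (adjusted p = 0.00637), and Atp6v0a4 was then the 1 member called lower while 4 others were called higher. In females the Day 5 values were 229, 123, 211 and 297 CPM and overlapped Day 0.

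Each of the 4 pump subunits was next set against its widely expressed paralogue in the same library, as a log2 ratio of counts, in which the scaling by library size cancels. No stretch of 50 bases was shared within any of the 4 pairs. For Atp6v1b1 over Atp6v1b2 the log2 ratios were -2.38, -2.47, -3.03 and -2.88 in male Day 0 mice, -2.34, -2.26, -1.99 and -2.09 in male Day 3 mice and -1.15, -0.45, -0.08 and 0.0043 in male Day 5 mice. The ratio was higher at each later day without overlap, by 0.77 at Day 2, 0.52 at Day 3 and 2.27 at Day 5 (two-sided exact permutation p = 0.0286 each, the smallest that 4 mice against 4 allow). The Day 5 difference was 2.52 without the library labelled male Day 5 mouse 1. Among the Day 5 males that library, with 42.5% mitochondrial counts, had the lowest ratio, and mice 2 to 4, with 78.9 to 79.8%, the higher ones, and the part of the mitochondrial share in the ratios was not tested. In females the same ratio was higher by 0.54 at Day 3 (exact permutation p = 0.0286) and by 0.69 and 0.60 at Day 2 and Day 5 (exact permutation p = 0.0571 each).

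Over Atp6v1g1, the log2 ratio of Atp6v1g3 relative to Day 0 stood at -0.08 at Day 2 and -0.21 at Day 3 in males (exact permutation p = 0.629 and 0.0286), although Atp6v1g3 itself had fallen by 1.09 on the log2 scale at Day 3. Atp6v1g1, the widely expressed G1 subunit, fell as well, by 0.84 ± 0.18 (edgeR adjusted p = 0.0165) in males and by 0.83 (edgeR adjusted p = 0.0479) in females at Day 3. In females the ratio of Atp6v1g3 to Atp6v1g1 stood at -0.32, -0.25 and 0.08 relative to Day 0 at Day 2, Day 3 and Day 5 (exact permutation p = 0.286, 0.229 and 0.771). At male Day 5 it was higher by 2.12 (exact permutation p = 0.0286), and by 2.35 without the library labelled mouse 1.

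The ratio of Atp6v0d2 to Atp6v0d1 was above that of Day 0 without overlap at male Day 2, by 0.28, at male Day 5, by 2.04, and at female Day 3, by 0.69 (exact permutation p = 0.0286 each). The male Day 5 difference was 2.18 without the library labelled mouse 1. On the other days this ratio overlapped Day 0, at 0.24 at male Day 3 (exact permutation p = 0.143) and 0.53 and 0.82 at female Day 2 and Day 5 (exact permutation p = 0.257 and 0.0571). The ratio of Atp6v0a4 to Atp6v0a1 was higher by 0.71 at male Day 3 (exact permutation p = 0.0286) and stood at 0.17 relative to Day 0 at male Day 2 (exact permutation p = 0.429). At male Day 5 it was 2.02 in the library labelled mouse 1 and 0.083, 0.13 and -0.42 in mice 2 to 4, which is -1.06 relative to Day 0 with all 4 (exact permutation p = 0.143) and -1.58 without the library labelled mouse 1, when Day 5 and Day 0 no longer overlapped (exact permutation p = 0.0286). In females it stood at 0.34, 0.54 and 0.33 at Day 2, Day 3 and Day 5 (exact permutation p = 0.257, 0.0571 and 0.429). Over the 24 comparisons of this kind the lowest Benjamini-Hochberg adjusted p was 0.0686, so none passed 0.05 after adjustment. Of the 10 with an exact permutation p of 0.0286, 4 kept that p with each mouse left out in turn, namely Atp6v1b1 over Atp6v1b2 at male Day 2 and Day 5 and those of Atp6v1g3 and Atp6v0d2 at male Day 5.

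**Figure D3:**
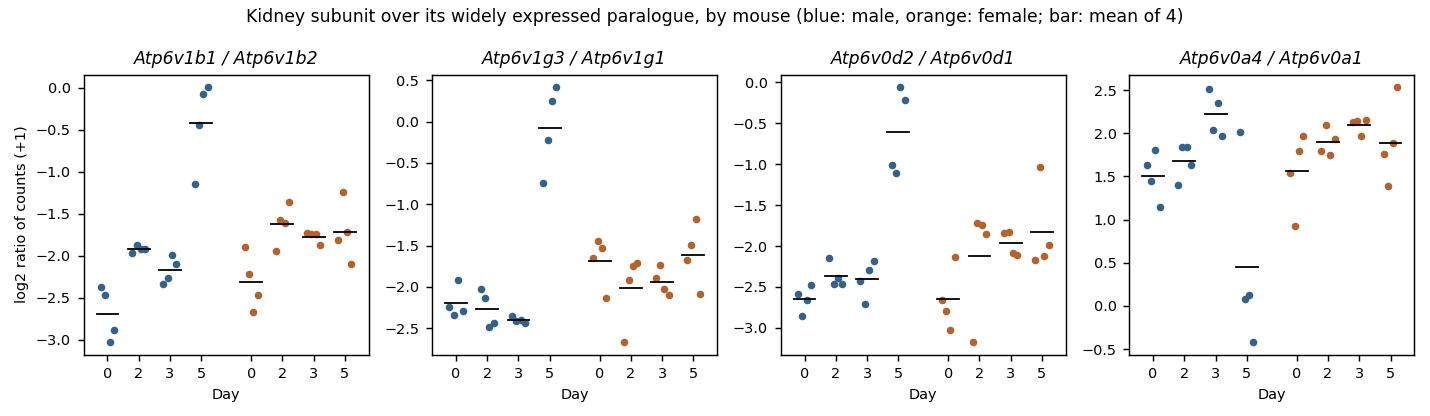
Log2 ratio of counts of each of 4 pump subunits abundant in intercalated cells to its widely expressed paralogue, with 1 point per mouse by day and sex and a bar at each group mean. In males at Day 5 the ratio of Atp6v1b1 to Atp6v1b2 lay between -1.15 and 0.0043, above the Day 0 range of -3.03 to -2.38.

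The pump subunits outside the set gave the surroundings of these ratios. Of 20 other V-ATPase genes tested, 9 were called lower and none higher in males at Day 3, 3 lower in females at Day 3, and 4 lower and 1 higher in males at Day 5, where 24.5%, 5.54% and 19.2% of all genes were called. The Day 5 count was 7 lower and 1 higher without the library labelled male Day 5 mouse 1, against 26% of all genes. Their median log2 fold change was -0.37 in males at Day 3. The gene called higher at Day 5 was Atp6v1c2, the C2 subunit, which is also restricted in its tissues. It fell by 0.88 ± 0.12 (edgeR adjusted p = 0.00569) in males at Day 3 and stood 1.36 ± 0.26 higher (edgeR adjusted p = 0.0129) in males at Day 5, with an adjusted p of 0.00370 without the library labelled mouse 1. Atp6v1g3 was likewise called lower at Day 3 and higher at Day 5. Atp6v1b2, the widely expressed B2 subunit, fell by 1.36 ± 0.30 (edgeR adjusted p = 0.0174) in males at Day 5, and by 1.68 without that library.

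Slc4a1 (ENSMUSG00000006574, chromosome 11, 102348824 to 102366203, minus strand) encodes the chloride-bicarbonate exchanger of the basolateral membrane of type A cells, and the same gene encodes band 3 of red cells. Its values were 26.7, 26.6, 24.2 and 48.6 CPM in male Day 0 mice and 17.6, 20.5, 19.1 and 32.0 CPM in male Day 3 mice, with overlap. Relative to Day 0 it stood at -0.50 ± 0.27 (SE, edgeR adjusted p = 0.202) there and 0.74 ± 0.29 (SE, edgeR adjusted p = 0.101) at male Day 5, and neither passed. Male Day 0 mouse 4 was the highest of its group, and without it the Day 5 value was 1.01 (edgeR adjusted p = 0.0292). It was 0.78 (adjusted p = 0.111) without the library labelled male Day 5 mouse 1. In female Day 3 mice it stood at 16.7, 49.3, 19.8 and 15.6 CPM, where mouse 2 was the high one. That mouse also had the highest sum of erythroid genes in its group, 82.0 CPM against 6.14 to 10.3 CPM in the others. Without it the log2 fold change in females at Day 3 was -1.07 (edgeR adjusted p = 0.0221), against -0.54 (edgeR adjusted p = 0.32) with it.

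Erythroid genes were read beside Slc4a1. Of 10 such genes 9 were in the table and 7 were tested at male Day 3, where 5 were called lower and none higher, against 13.1% of all genes called lower. Hba-a2, an alpha globin gene, was at 0 CPM in all 4 male Day 3 mice and at 5.48 to 132 CPM in male Day 0 mice. Their summed level in male Day 5 mice ran from 207 to 5507 CPM, the lowest in the library labelled mouse 1, while Slc4a1 ran from 31.4 to 69.5 CPM. In females the sums were 414 to 2652 CPM at Day 0, 6.14 to 82.0 CPM at Day 3 and 17.9 to 1453 CPM at Day 5. The part of red cell RNA in the values of Slc4a1 was not tested.

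Slc26a4 (ENSMUSG00000020651, chromosome 12, 31519827 to 31559969, minus strand) encodes pendrin, the luminal exchanger of type B and related cells. It varied least among the members in healthy males, at 53.3, 49.6, 50.6 and 50.7 CPM, and read 33.2, 43.5, 43.9 and 47.9 CPM at male Day 3, below every Day 0 mouse. That log2 fold change, -0.28 ± 0.12 (SE, edgeR adjusted p = 0.129), did not pass. At Day 5 it stood at 72.7, 44.1, 65.5 and 93.0 CPM in males and 39.2, 20.3, 54.3 and 61.8 CPM in females, both overlapping Day 0. None of its day comparisons was called, and the log2 fold changes at Day 5 were 0.50 (edgeR adjusted p = 0.143) in males (0.49 without the library labelled mouse 1) and -0.57 (edgeR adjusted p = 0.383) in females.

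Slc4a9 (ENSMUSG00000024485) encodes the basolateral exchanger AE4 of type B cells. Its values in males were 53.3, 39.4, 22.8 and 40.2 CPM at Day 0, 52.4, 60.7, 61.7 and 53.3 CPM at Day 2, 65.9, 61.3, 75.5 and 53.4 CPM at Day 3 and 95.9, 95.5, 152 and 151 CPM at Day 5. The Day 3 and Day 5 mice all lay above the Day 0 mice, although Day 0 mouse 1, at 53.3 CPM, and Day 3 mouse 4, at 53.4 CPM, were almost level. At Day 3 its log2 fold change of 0.72 ± 0.23 (SE, edgeR adjusted p = 0.0522) did not pass, while 0.54 (adjusted p = 0.0189) without male Day 0 mouse 3 did, as did 0.89 (adjusted p = 0.0376) when male Day 0 mouse 1 was left out. At Day 5 it was 1.74 ± 0.29 (SE, edgeR adjusted p = 0.0092), which is 3.33-fold, and it was called in 17 of 17 other fits with values between 1.38 and 1.92. Without the library labelled male Day 5 mouse 1 it was 1.85 (adjusted p = 0.00274). In females Day 0 spread widely, with 53.3, 34.6, 11 and 67.0 CPM, Day 5 read 60.8, 80.7, 67.5 and 64.4 CPM, and no day was called.

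Rhbg (ENSMUSG00000104445, chromosome 3, 88242874 to 88254709, minus strand) encodes the basolateral ammonia channel of the collecting duct, which principal cells make too. In males its values were 11.7, 11.3, 37.9 and 18.5 CPM at Day 0, 8.04, 7.28, 6.02 and 9.06 CPM at Day 2 and 4.46, 5.36, 5.28 and 5.98 CPM at Day 3. All Day 2 and Day 3 mice lay below all Day 0 mice, and Day 0 mouse 3 was the high one. The log2 fold change was -1.38 ± 0.39 (SE, edgeR adjusted p = 0.0715) at Day 2 and -1.92 ± 0.39 (SE, edgeR adjusted p = 0.0149) at Day 3, a 3.79-fold fall. Without male Day 0 mouse 3 these were -0.87 (adjusted p = 0.0352) and -1.39 (adjusted p = 0.00119), which is no longer over the DEG threshold.

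In females Rhbg spread more at Day 0, with 25.6, 49.6, 88.6 and 13.7 CPM, and stood at 20.3, 8.82, 11 and 10.7 CPM at Day 2 and 6.81, 10.9, 6.40 and 7.32 CPM at Day 3. The Day 3 mice lay below all Day 0 mice, whereas Day 2 mouse 1 exceeded Day 0 mouse 4. Relative to Day 0 the log2 fold change was -1.80 ± 0.51 (SE, edgeR adjusted p = 0.0741) at Day 2 and -2.51 ± 0.52 (SE, edgeR adjusted p = 0.0465) at Day 3, a 5.69-fold fall and the furthest from 0 of all members in any day comparison. At Day 2 it was -2.10 (adjusted p = 0.00597) when female Day 0 mouse 4 was left out. At Day 5 it read 20.1, 37.3, 19.2 and 49.5 CPM in males and 6.12, 5.77, 15.5 and 13.3 CPM in females. Males stood at 0.71 ± 0.46 (SE, edgeR adjusted p = 0.289) and females at -2.11 ± 0.55 (SE, edgeR adjusted p = 0.16) relative to Day 0, and neither passed. The male value was 1.26 (adjusted p = 0.0467) without male Day 0 mouse 3, 0.90 (adjusted p = 0.199) without the library labelled male Day 5 mouse 1, and 0.40 when mouse 4 of that group was left out. The female value was -2.40 (adjusted p = 0.0194) without female Day 0 mouse 4.

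Rhcg (ENSMUSG00000030549, chromosome 7, 79593363 to 79617657, minus strand) encodes the ammonia channel of the luminal and basolateral membranes. In males its values were 99.0, 84.6, 91.7 and 76.0 CPM at Day 0, 68.6, 68.2, 67.1 and 76.8 CPM at Day 2 and 44.1, 50, 54.2 and 64.5 CPM at Day 3. All Day 3 mice lay below all Day 0 mice, and the log2 fold change at Day 3 was -0.72 ± 0.14 (SE, edgeR adjusted p = 0.0131). It was called in 13 of 17 other fits, with values from -0.83 to -0.46. In females the values were 168, 171, 169 and 93.0 CPM at Day 0 and 63.5, 95.2, 72.6 and 74.0 CPM at Day 3. Day 0 mouse 4 stood apart and just below the highest Day 3 mouse, mouse 2 at 95.2 CPM. Relative to Day 0 this was a log2 fold change of -0.99 ± 0.23 (SE, edgeR adjusted p = 0.048), and -1.16 (adjusted p = 0.00170) without female Day 0 mouse 4. At Day 5 Rhcg read 133, 163, 132 and 251 CPM in males, above every Day 0 mouse, and 79.2, 64.7, 120.0 and 111 CPM in females. In males the Day 5 log2 fold change was 1.01 ± 0.26 (SE, edgeR adjusted p = 0.0268), and 1.13 (adjusted p = 0.0110) without the library labelled mouse 1. In females it was -0.68 (edgeR adjusted p = 0.275), and -0.85 (adjusted p = 0.0401) without female Day 0 mouse 4.

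The comparison of males with females asked whether the sexes differed at a given day. At Day 0 edgeR called no member, against 0.449% of all genes, and 1 of 10 had an unadjusted p under 0.05, against 8.04% of all genes. DESeq2 called 0 there, with 2.78% of all genes, and voom 4, with 25.1%. The groups did not overlap for 1 member, Slc26a4, against 6.17% of all genes. At Day 2 edgeR again called none, against 1.47% of all genes, 6 had an unadjusted p under 0.05 against 15% of all genes, DESeq2 called 2 (5.12% of all genes) and voom 5 (19.3%). Atp6v1b1, Slc26a4 and Rhcg did not overlap between the sexes at Day 2, against 8.96% of all genes.

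At Day 3, 5 of 10 members were called, all lower in males, where 21.3% of all genes were called and 10.7% were called lower in males. Atp6v1g3 was lowest in adjusted p, with 21.2, 19.8, 20.2 and 19.9 CPM in males against 28.1, 32.4, 26.5 and 30.6 CPM in females. These groups did not overlap, and the log2 difference, male minus female, was -0.57 ± 0.076 (SE, edgeR adjusted p = 0.00143). Foxi1 read 17.3 to 21.3 CPM in males and 23.1 to 27.5 CPM in females, a log2 difference of -0.42 ± 0.083 (SE, edgeR adjusted p = 0.00811). Atp6v0d2 differed by -0.48 ± 0.11 (SE, edgeR adjusted p = 0.0168), Rhcg by -0.55 ± 0.15 (SE, edgeR adjusted p = 0.0266) and Rhbg by -0.60 ± 0.18 (SE, edgeR adjusted p = 0.04). The sexes did not overlap for 4 members, namely Atp6v1g3, Atp6v0d2, Foxi1 and Rhbg, against 25.7% of all genes. The median of the 10 log2 differences was -0.45, against -0.02 for all genes. The count of called members was 2 without male Day 3 mouse 2 or mouse 3, when 11.1% and 11.6% of all genes were called, 3 without male Day 3 mouse 1 or female Day 3 mouse 4, when 17.4% and 17% were, and 0 in 1 fit over all 8 groups, where 0.988% of all genes were called. Whether the change from Day 0 to Day 3 differed between the sexes was tested by an interaction term, and none of the 10 was called, against 0.0114% of all genes. None had an unadjusted p under 0.05, DESeq2 called 0 (0.521% of all genes) and voom 1 (12.1%). For the interaction at Day 2, edgeR called 0 members against 0% of all genes, 0 at an unadjusted p under 0.05, and 0 by DESeq2 and by voom, which called 0.15% and 10.6% of all genes.

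At Day 5 the log2 difference, male minus female, was above 0 for 9 of 10 members. With all libraries edgeR called none, against 0.276% of all genes, while 8 of 10 had an unadjusted p under 0.05 against 20.3% of all genes, DESeq2 called 5 (6.95% of all genes) and voom 7 (29.8%). For 5 members, Atp6v1g3, Atp6v0d2, Slc4a9, Rhbg and Rhcg, every library labelled male lay above every female one, against 8.85% of all genes without overlap. The library labelled male Day 5 mouse 1, which goes against its label, is among them. The log2 difference, male minus female, was 1.5 ± 0.32 (SE, edgeR adjusted p = 0.0821) for Atp6v1g3, 1.68 ± 0.41 (SE, edgeR adjusted p = 0.108) for Rhbg and 0.92 ± 0.28 (SE, edgeR adjusted p = 0.147) for Rhcg. Without the library labelled male Day 5 mouse 1, 6 of 10 were called, against 17.0% of all genes. These were Rhbg at 1.90 (adjusted p = 0.00914), Atp6v1g3 at 1.74 (adjusted p = 0.00163), Atp6v0d2 at 1.17 (adjusted p = 0.00507), Rhcg at 1.08 (adjusted p = 0.0206) and Slc4a9 at 1.07 (adjusted p = 0.00698), all higher in males, and Atp6v0a4 at -1.76 (adjusted p = 0.00149), lower in males.

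The interaction of sex with the change from Day 0 to Day 5 was tested next. With all libraries none of the 10 was called by edgeR, against 0.243% of all genes, 6 had an unadjusted p under 0.05 against 15.2% of all genes, DESeq2 called 3 (4.23% of all genes) and voom 6 (32.6%). The male log2 fold change minus the female one was 2.82 ± 0.78 (SE, edgeR adjusted p = 0.114) for Rhbg, from 0.71 in males and -2.11 in females. It was 2.06 ± 0.49 (SE, edgeR adjusted p = 0.0877) for Atp6v1g3, from 1.46 and -0.61, and 1.67 ± 0.38 (SE, edgeR adjusted p = 0.073) for Rhcg, from 1.01 and -0.68. Without the library labelled male Day 5 mouse 1, 4 members were called, against 6.74% of all genes. Rhbg then stood at 2.98 (adjusted p = 0.0388), Atp6v1g3 at 2.25 (adjusted p = 0.00900) and Rhcg at 1.78 (adjusted p = 0.0104), whereas Atp6v0a4 stood at -1.85 (adjusted p = 0.0260).

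The mitochondrial share of the libraries moved with the male Day 5 group, at 42.5 to 79.8% against 6.46 to 24% in male Day 0 mice. With mitochondrial transcripts left out before scaling, 5 of 10 members were called in males at Day 5, all higher, against 18.3% of all genes. In female Day 5 mouse 2, whose mitochondrial share was 77.9%, 2 members lay above the range of the other female Day 5 mice, Slc4a9 at 80.7 CPM against 60.8 to 67.5 CPM and Atp6v0d2 at 28.6 CPM against 20.4 to 27.1 CPM. Below it lay 6 members, among them Atp6v0a4 at 123 CPM against 211 to 297 CPM, Slc26a4 at 20.3 CPM against 39.2 to 61.8 CPM and Rhcg at 64.7 CPM against 79.2 to 120 CPM, with Slc4a1, Foxi1 and Rhbg. Atp6v1g3 and Atp6v1b1 lay within it. Its log2 ratios of Atp6v1b1 to Atp6v1b2, -1.24, and of Atp6v0d2 to Atp6v0d1, -1.04, were the highest of its group, and that of Atp6v0a4 to Atp6v0a1, 1.39, was the lowest. RNA quality was not measured in the files, and its part in the Day 5 values was not tested.

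Gene length moved with the Day 2 and Day 3 changes as well. Over all genes the median log2 fold change at male Day 3 was -0.57 for genes under 1000 bases and 0.34 for genes of 6000 bases or more, and in females at Day 3 it was -0.63 and 0.29. At Day 2 these medians were -0.53 and 0.28 in males and -0.65 and 0.25 in females. The 3 members that fell at Day 3 are the shortest of the set, Atp6v1g3 with 1887 bases, Rhbg with 1937 and Rhcg with 2232, and Atp6v0a4 is the longest with 4973. In single libraries, genes under 2000 bases stood above genes of 6000 bases or more by 0.70 on the log2 scale in male Day 0 mouse 3 and by 0.66 to 0.90 in female Day 0 mice 1 to 3, and by -0.22 in female Day 0 mouse 4. These differences ran from -0.42 to -0.33 in male Day 3 mice. With the length trend of each library taken out as an offset, Rhbg at -1.56 (adjusted p = 0.0292) and Atp6v1g3 at -0.72 (adjusted p = 0.0493) were still called in males at Day 3, Slc4a9 at 0.86 (adjusted p = 0.0470) was called higher, and Rhcg at -0.46 (adjusted p = 0.0559) and Atp6v0a4 at 0.63 (adjusted p = 0.0742) were not. In females at Day 3 the values with the offset were -2.20 for Rhbg, -0.83 for Atp6v1g3 and -0.77 for Rhcg, with none of 17065 genes called. At male Day 2 the offset gave -0.77 for Atp6v1g3 and -1.09 for Rhbg, against -1.08 and -1.38 in the main fit. At male Day 5 the 6 calls were the same with the offset.

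**Figure D4:**
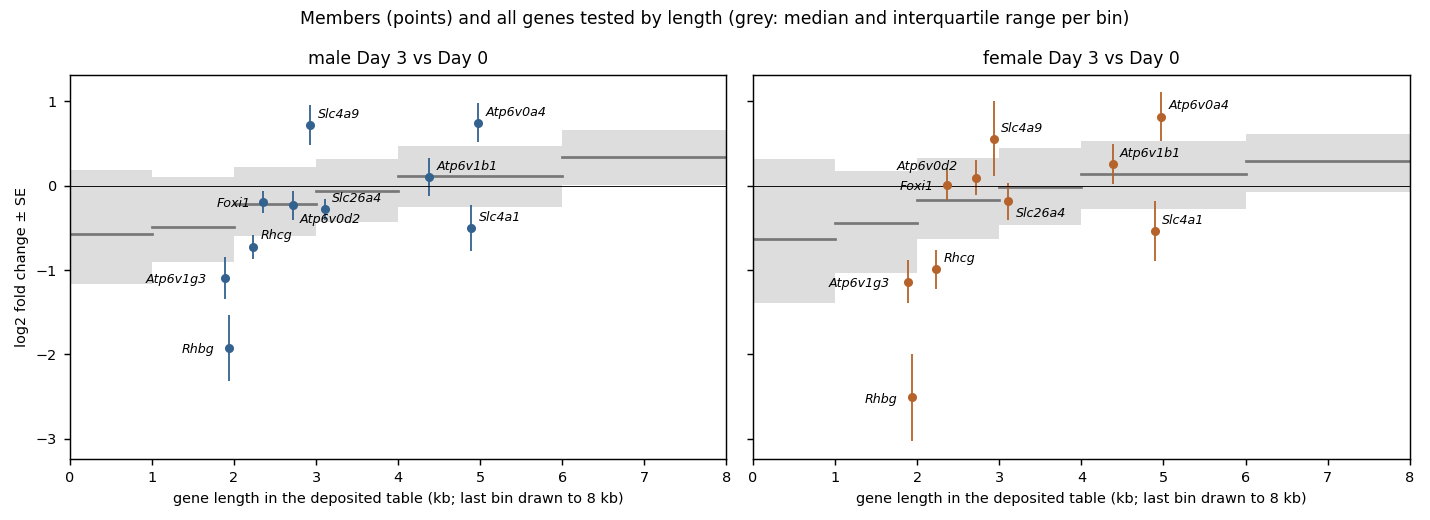
Log2 fold change at Day 3 against Day 0 by gene length in kb, for males and females, with the median and interquartile range of all genes in 6 length classes in grey and the 10 members as labelled points with their SE. Rhbg, at 1937 bases, lies at -1.92 in males and -2.51 in females, below the class medians of -0.49 and -0.45 for genes of 1000 to 2000 bases.

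Other genes known from intercalated cells were counted in the same way. Of 19 tested in males, 3 were called higher and none lower at Day 2, against 3.16% of all genes called, and 3 higher and 1 lower at Day 3, a share near the 24.5% of all genes. At Day 5, 8 were called higher and none lower, against 8.98% of all genes called higher, and without the library labelled male Day 5 mouse 1 they were 8 higher and 1 lower, against 11.4% and 14.5% of all genes. In females 1 of 20 was called at Day 3, higher, against 5.54% of all genes, and none at Day 2 or Day 5, against 1.93% and 0.258%. Aqp6, a water and anion channel of intercalated cells, rose by 1.31 (edgeR adjusted p = 0.0491), 0.89 (edgeR adjusted p = 0.0175) and 1.26 (edgeR adjusted p = 0.00967) in males at Day 2, Day 3 and Day 5, and by 0.92 (edgeR adjusted p = 0.0479) in females at Day 3. Adgrf5, an adhesion receptor that endothelial cells make too, and P2ry14, a receptor for nucleotide sugars, rose in males at each day, with log2 fold changes of 1.31 (edgeR adjusted p = 0.00503) and 1.57 (edgeR adjusted p = 0.00925) at Day 3. Hmx2, a homeobox gene, fell by 0.93 (edgeR adjusted p = 0.0124) in males at Day 3.

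The neighbouring tubule segments were read from lists of their own, at Day 3, where 24.5% of all genes were called in males and 5.54% in females. Of 8 principal cell genes, 1 was called higher and 1 lower in males at Day 3, namely Aqp4 at 1.27 (edgeR adjusted p = 0.0168), a basolateral water channel, and Calb1 at -2.23 (edgeR adjusted p = 0.00162), a calcium-binding protein that the distal convoluted tubule makes too. In females at Day 3 the 1 called was Fxyd4, lower by 1.49 on the log2 scale (edgeR adjusted p = 0.0479). Of 8 genes of the thick limb and the distal convoluted tubule, 3 were called lower in males at Day 3 and 1 in females at Day 3, with none higher. The others included log2 fold changes up to 0.93 in males and 1.12 in females, and the median sum of the list was 2246 CPM at Day 0 and 2329 CPM at Day 3 in males and 2279 and 3255 CPM in females. Pvalb, a calcium-binding protein of the distal convoluted tubule, fell by 3.86 (edgeR adjusted p = 0.00915) in males and 3.74 (edgeR adjusted p = 0.0465) in females. Of 10 genes of the proximal tubule, the acid-base genes with the markers Slc34a1 and Lrp2, 3 were called higher and 1 lower in males at Day 3. Pck1, an enzyme of glucose formation that rises in acidosis, stood 2.04 higher (edgeR adjusted p = 0.0266), and Car4, a membrane carbonic anhydrase, 1.17 lower on the log2 scale (edgeR adjusted p = 0.0110). Of 5 tubule injury genes tested, 1 was called higher in males at Day 3, Lcn2 (NGAL) at 3.53 (edgeR adjusted p = 0.0155), and 3 in females at Day 3, namely Lcn2 at 4.40 (edgeR adjusted p = 0.0465), Havcr1 (KIM-1) at 5.86 (edgeR adjusted p = 0.0465) and Krt20 at 6.18 (edgeR adjusted p = 0.0465). The part of other tubule segments in the Day 3 values of Rhbg, Rhcg and Atp6v1g3 was not tested.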

How the data were processed

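Kidney RNA of 32 mice was sequenced as paired-end reads of 150 bp. The values tested were raw counts of reads per gene as deposited by the authors, and their deposited FPKM values of the same libraries served as 1 alternative for the paralogue ratios. The deposited coordinates equal GRCm38, which the methods name, while the submitters' processing notes name HTSeq, DESeq2, GRCm39 and mm39. The aligner and the strandedness are not given in the sources used here. Strand could therefore not be used to separate overlapping genes.

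The test was edgeR 4.0.16, run in R 4.3.3 (TMM scaling, filterByExpr on the groups compared, robust dispersions, quasi-likelihood test), with each of 13 comparisons fitted on its own groups and adjusted by Benjamini-Hochberg over all genes tested. A standard error (SE) is that of the log2 fold change. CPM used TMM factors over the 32 libraries. Paralogue log2 ratios used counts plus 1 and two-sided exact permutation tests. The method was tested on data simulated from the male Day 3 comparison. There edgeR called 111 of 200 changed genes, and 6 unchanged ones. It called 2 of 50 genes changed 1.5-fold and 19 of 50 changed 2-fold, so changes of that size can go uncalled. Total counts lay between 16502107 and 35961325, and 3 male and 1 female Day 5 libraries held 77.9 to 79.8% mitochondrial counts, which leaves their other genes at lower depth.

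The members and the lists of other genes were chosen with earlier results of these data known. The text names the 10 members, at most 4 genes of each other list with the smallest adjusted p at Day 2 or Day 3, the paralogues, and the 5 genes closest to Foxi1. Ocstamp, Ctsk, Hba-a2, Slc34a1 and Lrp2 were named after their values were seen. Mouse numbers were taken only to name the mice, since in no comparison did all 4 same-numbered pairs have deviations that correlated over 0.1 (at most 3 of 4, between the sexes at Day 0, at 0.27, 0.44 and 0.48). Alternatives were DESeq2's size factors, the DESeq2 1.42.0 Wald test, no filter, at least 10 counts in every library, the mouse number as a replicate block, 1 fit of all groups, voom of limma 3.58.1 with sample quality weights, mitochondrial transcripts left out, the DEG threshold, other pseudocounts for the ratios, and each mouse left out in turn. The gene length offset, and the gene lists without the library labelled male Day 5 mouse 1, were chosen after the data were seen. Cd68, Ctss and Csf1r were named after their values were seen. Files were read with the R package data.table, version 1.17.8. Sequences are from RefSeq.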

Additional observations from a re-analysis of the deposited data

Results flagged for a closer look

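Within groups, 1 mouse stood apart from the other 3 in 9 of the 80 combinations of gene and group, where chance alone gives about 4 (1 in 20). Male Day 0 mouse 3 had 69.8 CPM of Atp6v1g3 against 33.1 to 35.6 CPM in the others. Male Day 0 mouse 4 had 48.6 CPM of Slc4a1 against 24.2 to 26.7 CPM, and male Day 0 mouse 2 had 26.3 CPM of Foxi1 against 19.9 to 20.6 CPM. Rhcg stood apart in male Day 2 mouse 4, with 76.8 CPM against 67.1 to 68.6 CPM, in female Day 0 mouse 4, with 93.0 CPM against 168 to 171 CPM, and in female Day 2 mouse 1, with 154 CPM against 93.7 to 101 CPM. Slc4a1 was at 49.3 CPM in female Day 3 mouse 2 against 15.6 to 19.8 CPM. At male Day 5, mouse 2 had 75.7 CPM of Atp6v1b1 against 92.7 to 94.2 CPM, and the library labelled mouse 1 had 207 CPM of Atp6v0a4 against 51.9 to 62.0 CPM.

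For a pair of genes the mice of each sex lay on opposite sides of their Day 0 mean at Day 5. Every library labelled male Day 5 lay above, and every female Day 5 mouse below, the Day 0 mean of its labelled sex for Atp6v1g3, with log2 fold changes of 1.46 in males and -0.61 in females (edgeR adjusted p = 0.371), and for Rhcg, with 1.01 in males and -0.68 in females (edgeR adjusted p = 0.275). The male libraries include that of mouse 1, which goes against its label. Neither female value passed. The interaction of sex and day by edgeR had an adjusted p of 0.0877 for Atp6v1g3 and 0.0730 for Rhcg with all libraries, and neither passed. It was called in 9 of 25 other fits for Atp6v1g3 and in 7 of 25 for Rhcg. These included the fit with the gene length offset (edgeR adjusted p = 0.0469 and 0.0420) and, as given above, the fit without the library labelled male Day 5 mouse 1.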

How the results depend on the processing

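The Day 5 libraries with 77.9 to 79.8% mitochondrial counts had fewer counts of other genes, and in the Day 0 groups 1 mouse sometimes stood apart. Both are limits of the day comparisons whose size was not tested. Of the calls, those of Atp6v0d2 and Slc4a9 at male Day 5 held in 17 of 17 other fits, though Atp6v0d2 is under the DEG threshold, and the others in fewer. At male Day 3 these were Rhbg and Rhcg in 13, Atp6v1g3 in 12 and Atp6v0a4 in 5, at male Day 5 Atp6v1g3 in 12, Rhcg in 11, Atp6v1b1 in 7 and Foxi1 in 6, at female Day 3 Rhbg in 8, Atp6v1g3 in 7 and Rhcg in 6, and between the sexes at Day 3 Atp6v1g3 and Foxi1 in 16, Atp6v0d2 in 14 and Rhbg and Rhcg in 10. Why calls were lost or gained was not tested, except that leaving out a mouse leaves fewer samples and the DEG threshold adds a criterion.

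The number of the 10 genes called moved by over 1.5 times as follows, with the share of all genes called by the same fit in brackets. With the mouse number as a replicate block it was 0 at male Day 3 (0.566%) and at female Day 3 (0%), 3 at male Day 5 (13%) and 1 for the interaction at Day 5 (0.485%), and the block changed no other count by that much. The numbers were not taken to pair the mice, since in no comparison did all 4 same-numbered pairs correlate over 0.1 in their deviations (-0.42 to 0.48). Between the sexes at Day 0, 3 of 4 did, and there the block called 0 (1.31%). The DESeq2 Wald test called 2 at male Day 2 (20%), 2 at female Day 2 (13%), 1 at female Day 5 (4.82%), 2 between the sexes at Day 2 (5.12%), 5 at Day 5 (6.95%) and 3 for the interaction at Day 5 (4.23%). One model over all 8 groups called 2 at male Day 2 (12.9%), 2 at female Day 2 (21.8%), 2 at female Day 5 (10.9%), 0 between the sexes at Day 3 (0.988%), 5 at Day 5 (9.69%) and 4 for the interaction at Day 5 (7.55%). With voom and sample quality weights the counts were 4 at male Day 2 (46.4%), 4 at female Day 2 (50.3%), 5 at female Day 3 (47.9%), 2 at female Day 5 (17.6%), 4 (25.1%), 5 (19.3%) and 7 (29.8%) between the sexes at Day 0, Day 2 and Day 5, and 1 (12.1%) and 6 (32.6%) for the interactions at Day 3 and Day 5. The DEG threshold left 1 at male Day 3 (3.72%), 1 at male Day 5 (7.53%), 1 at female Day 3 (2.48%) and 0 between the sexes at Day 3 (1.93%). Without a filter there were 1 at female Day 2 (3.41%), 2 between the sexes at Day 5 (1.29%) and 1 for the interaction at Day 5 (0.171%), and with at least 10 counts in every library 1 at female Day 2 (6.66%) and 1 for the interaction at Day 5 (0.531%). DESeq2's size factors gave 1 at female Day 3 (2.53%). The gene length offset gave 0 at female Day 3 (0%), 3 between the sexes at Day 3 (19%) and 2 for the interaction at Day 5 (0.438%).

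With each mouse left out in turn, the counts ran from 0 to 2 at male Day 2, 0 to 5 at male Day 3, 2 to 6 at male Day 5, 0 to 3 at female Day 2, 0 to 4 at female Day 3 and 0 to 2 at female Day 5. Between the sexes they ran from 0 to 1 at Day 2, 2 to 5 at Day 3 and 0 to 6 at Day 5, and for the interaction from 0 to 4 at Day 5.

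Signs turned for these log2 fold changes, none of which edgeR called with all libraries. The length offset gave 0.022 for Atp6v0d2 at male Day 2, 0.037 for Foxi1 at male Day 3, -0.083 for Slc4a1 at female Day 2 and -0.014 for Atp6v0a4 between the sexes at Day 0. With voom, Atp6v1b1 was -0.12 at male Day 3, Slc4a1 -0.43 at female Day 2, Atp6v0d2 -0.072 and Foxi1 -0.15 at female Day 3. Between the sexes voom gave 0.065 for Slc4a9 at Day 0, 0.28 for Slc4a1 and 0.11 for Slc4a9 at Day 2, 0.12 for Slc4a1 at Day 3 and -0.045 for Foxi1 at Day 5, and for Slc26a4 0.041 and 0.077 in the interactions at Day 2 and Day 3. The replicate block gave -0.051 for Slc4a1 at female Day 2 and 0.10 for Slc4a9 between the sexes at Day 0. Atp6v0a4 between the sexes at Day 0 was -0.033 without a filter and -9.65e-05 with at least 10 counts.

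With mice left out in turn, signs also turned in these ranges. At male Day 2, Atp6v0d2 ran from -0.23 to 0.023 and Slc4a1 from -0.13 to 0.48, and at male Day 3 Atp6v1b1 ran from -0.082 to 0.26. At female Day 2, Slc4a1 ran from -0.35 to 0.27 and Slc26a4 from -0.13 to 0.044, and at female Day 3 Atp6v0d2 from -0.060 to 0.19 and Foxi1 from -0.074 to 0.18. Between the sexes at Day 0, Atp6v0d2 ran from -0.27 to 0.0052, Atp6v1b1 from -0.33 to 0.026, Atp6v0a4 from -0.18 to 0.29 and Slc4a9 from -0.42 to 0.23. At Day 2, Slc4a1 ran from -0.44 to 0.30 and Slc4a9 from -0.12 to 0.0052, at Day 3 Slc4a1 from -0.45 to 0.34 and Slc4a9 from -0.064 to 0.11, and at Day 5 Foxi1 from -0.032 to 0.24. For the interaction at Day 2, Atp6v1g3 ran from -0.11 to 0.41, Atp6v1b1 from -0.33 to 0.041, Slc4a1 from -0.24 to 0.52, Slc4a9 from -0.29 to 0.35 and Rhbg from -0.17 to 0.92. At Day 3, Atp6v1g3 ran from -0.16 to 0.35, Atp6v0a4 from -0.39 to 0.090, Slc4a1 from -0.21 to 0.55, Slc26a4 from -0.25 to 0.066 and Slc4a9 from -0.19 to 0.45. The log2 ratio of Atp6v1g3 to Atp6v1g1 ran from -0.16 to 0.016 at male Day 2 and from -0.069 to 0.24 at female Day 5. Other pseudocounts and FPKM in place of counts left each paralogue ratio on its side of an exact p of 0.05, whereas for same-numbered pairs the 10 ratios under it could not pass, since 4 pairs are too few. With mice left out in turn, 23 fits of those ratios no longer had an exact p under 0.05, and 4 fits of other ratios then had one.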
